A study of Drosophila melanogaster with 10 samples.

Results

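The transcription factor genes tap, erm, fd59A, tll, sna, esg and wor, all known from neural progenitors of the fly, were followed across 5 groups of Drosophila melanogaster arrays. They were chosen by name, because several of them read higher in Jarid2 mutant disc cells in these same data, so the disc comparison of these genes is a description without a test, and only the larval comparisons were tested. All 7 genes were measured, each by 1 probe set, out of 11982 genes with a single platform symbol and 18769 probe sets. The probe sets were 1635026_at (tap), 1624470_at (erm), 1625779_at (fd59A), 1635993_at (tll), 1636646_at (sna), 1641639_at (esg) and 1631502_at (wor). No probe set was filtered out for low values.

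Neuroblasts are the stem cells of the fly nervous system, and in the larval brain some of them divide by way of intermediate neural progenitors. Basic helix-loop-helix factors such as tap act in neuronal precursors, the zinc finger factor encoded by erm restricts the potential of intermediate progenitors, and the nuclear receptor encoded by tll acts in the embryonic brain and in the optic lobes. The Snail family zinc finger genes sna, esg and wor act with overlapping roles in neuroblast division, and esg also keeps imaginal cells diploid. The Jarid2 protein binds Polycomb repressive complex 2, a silencer of many developmental regulators in which the product of E(z) methylates histone H3.

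The groups held 2 Affymetrix arrays each, with expression as deposited log2 values. The disc groups were Jarid2 mutant and control cells of eye-antenna imaginal discs, dissociated from about 500.0 discs and sorted by GFP fluorescence. The sources used here do not give the fraction kept. The larval groups were 3rd instar Jarid2 mutants, animals titled E(z) RNAi, and controls, with 20 larvae in each sample. The Jarid2 mutants, in both tissues, came from the line Jarid2MB00996/TM3, so the allele was kept over a balancer, and the sources used here do not say if the sampled animals or cells were homozygous. The E(z) animals used the transgene UAS-E(z)-RNAi, whose driver the labels do not name, and their genotype field, like that of the controls in both tissues, reads wild type.

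Jarid2 followed its labels, with 7.64 and 6.80 in mutant disc cells against 10.14 and 10.10 in control disc cells, and 4.19 and 4.26 in mutant larvae against 9.63 and 9.48 in control larvae. E(z) went against its label, with 9.25 and 9.56 in the larvae labelled E(z) RNAi against 8.53 and 8.31 in control larvae, so directions given for that group come from arrays without a lower E(z) reading. The sources used here do not say if these probe sets lie in the affected part of either transcript. The discs bore their tissue label. The mean of the eye determination gene eya was 12.68 in mutant and 12.23 in control disc cells, while group means in larvae lay between 7.62 and 7.77. The mean of the fat body storage protein gene Lsp2 was 5.51 in mutant and 5.47 in control disc cells, while larval means lay between 14.89 and 15.04. Medians over all probe sets lay between 5.55 and 5.62 in disc arrays and between 7.39 and 7.54 in larval arrays, so a level difference between tissues depends on how the arrays were scaled. The labels do not say that replicates came from separate animals or cultures, so p-values cover only the spread seen among these arrays, possibly a technical one, and the number of arrays limits precision.

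In disc cells 5 of the 7 genes read higher in the Jarid2 mutant arrays than in both control arrays, by 2.19-fold to 3.66-fold on average, while esg read lower and wor overlapped. These are the values by which the genes came to be listed. The median log2 difference of the 7 genes was 1.34, against 0.06 over all probe sets. Of all probe sets, 37.1% had both mutant disc arrays above both control disc arrays, and 0.181% were at least 2-fold higher, a share that is given as background only because the disc comparison chose the genes.

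**Figure D1:**
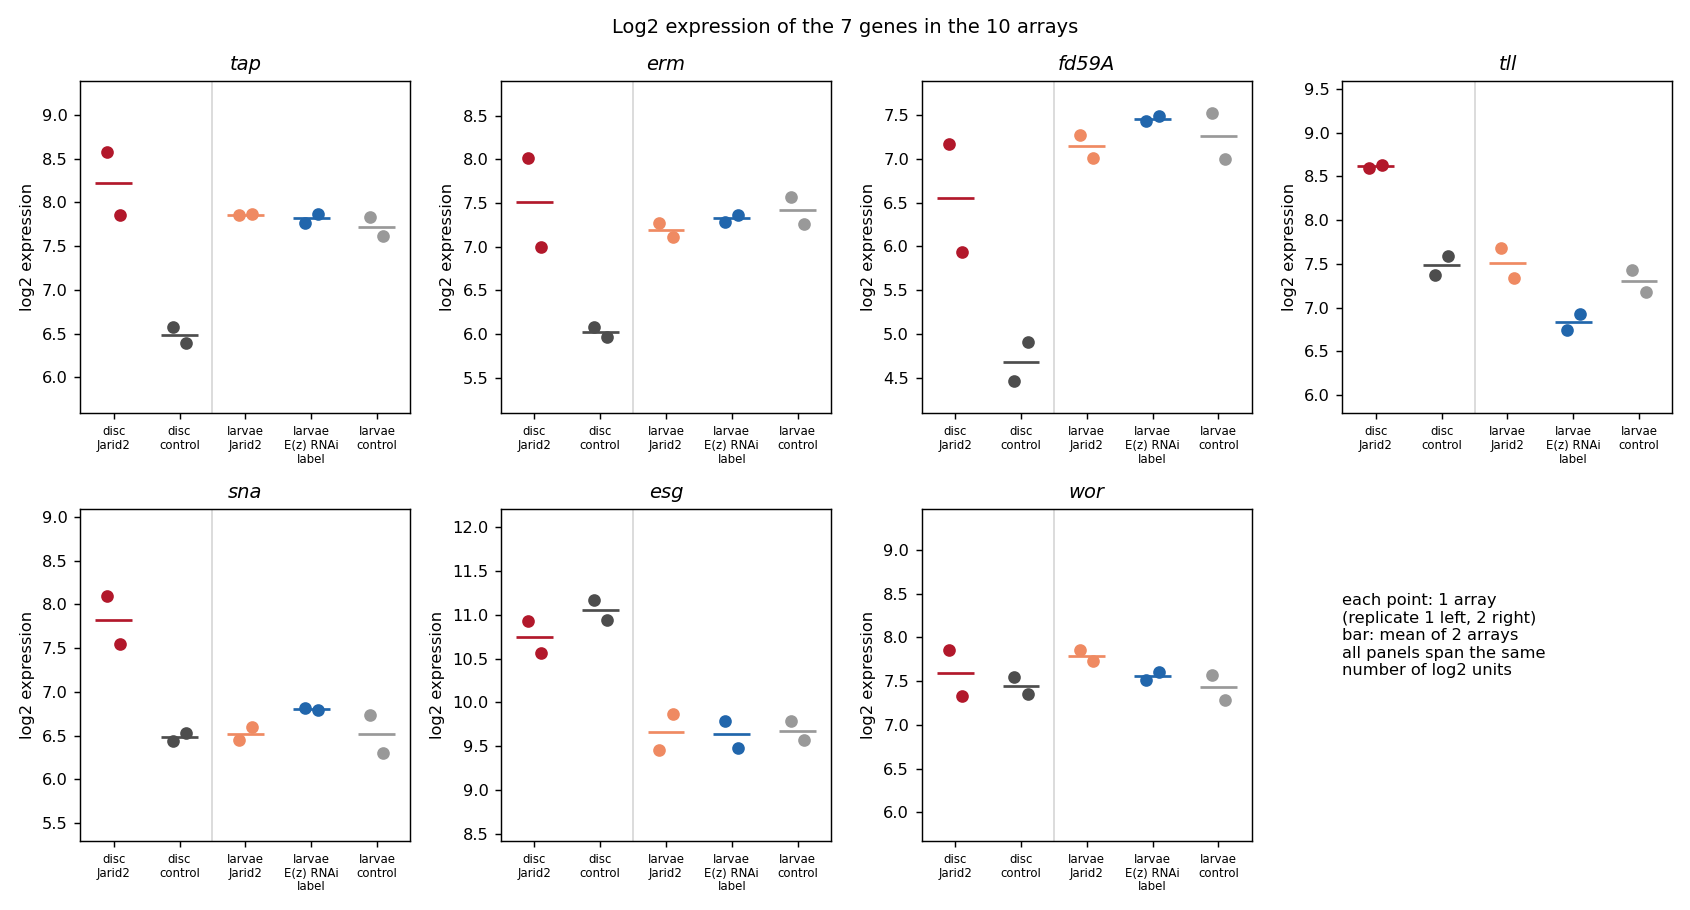
Log2 expression (vertical axis) of each gene in the 10 arrays, with the 5 groups along the horizontal axis. Points are arrays, with replicate 1 to the left of replicate 2, and bars are means of 2 arrays. In tap, erm, fd59A, tll and sna both Jarid2 mutant disc arrays lie above both control disc arrays, and the larval groups lie close together.

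The bHLH gene tap, a relative of the vertebrate neurogenins, read 8.58 and 7.86 in mutant disc cells, against 6.58 and 6.40 in control disc cells. Both mutant arrays were well above both controls, and the first mutant array was the higher of the pair. The means were 8.22 ± 0.51 in mutant and 6.49 ± 0.13 in control disc cells (SD, n = 2 each), a log2 difference of 1.73, or 3.32-fold.

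The gene erm encodes a zinc finger factor of the Fezf type. It read 8.02 and 7.0004 in mutant disc cells, against 6.09 and 5.97 in control disc cells. The groups did not overlap, but the 2 mutant arrays differed from each other by 1.02 log2 units, more than the lower of them differed from the control mean (0.97). The log2 difference of means was 1.48.

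The forkhead gene fd59A encodes the fly FoxD factor, which is expressed in the nervous system. It read 7.17 and 5.94 in mutant disc cells, against 4.46 and 4.90 in control disc cells. This was the largest difference of the 7, at 1.87 log2 units or 3.66-fold, and also the widest spread between mutant arrays (1.23). The control values lay below the medians of their arrays (5.62 in both) and little above the lower quartiles (4.22 and 4.20), so this fold rests on control readings near the dim end of the array.

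The orphan nuclear receptor gene tll read 8.60 and 8.63 in mutant disc cells, against 7.38 and 7.59 in control disc cells. Here the mutant arrays were nearly equal, unlike in tap, erm and fd59A, and the groups were separated by 1.00 between their nearest arrays. The log2 difference of means was 1.13, or 2.19-fold.

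The Snail family members did not move alike. The gene sna, which also drives mesoderm formation in the embryo, read 8.09 and 7.55 in mutant disc cells, against 6.44 and 6.53 in control disc cells, a log2 difference of 1.34. Its groups did not overlap. The gene esg read 10.93 and 10.57 in mutant disc cells, against 11.17 and 10.95 in control disc cells. Both mutant arrays lay below both controls, though the nearest arrays were almost equal, and the log2 difference was -0.31. The gene wor read 7.86 and 7.33 in mutant disc cells, against 7.55 and 7.35 in control disc cells. These groups overlapped, with 1 mutant array above and 1 below both controls, and the difference was 0.15.

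The Snail family genes are neighbours on the chromosome. In the RefSeq annotation of Release 6 the stretch that begins with esg and ends with sna holds 15 genes, with wor between them, and 6 of the 15 are protein-coding. Besides the family members, 2 genes in the stretch were measured, CG15258 and CG4161. CG15258 differed by 0.14 (adjusted p = 0.992, limma) and CG4161 by -0.00082 (adjusted p = 0.9996, limma) between mutant and control disc cells, and neither passed the test.

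The first mutant disc array read higher than the second in 6 of the 7 genes, tll being the exception. The gap was at least 0.5 log2 units in 5 genes, namely tap, erm, fd59A, sna and wor. Over all probe sets 2.73% showed such a gap, and the median gap was -0.02. The mutant disc values behind the gap also served to list the genes, so that share is background only. Jarid2 itself had a gap of 0.85 in the same direction, which means that the array with more Jarid2 signal was also the one with higher readings of these 5 genes. Relative to the control mean, tap stood 4.26-fold higher in the first mutant array and 2.59-fold higher in the second. For fd59A the same values were 5.61-fold and 2.39-fold, and for erm 3.97-fold and 1.96-fold. Between the control disc arrays 0.762% of probe sets had a gap of 0.5 or more in the same order.

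Other cell types also differed between the disc groups, and these values stand beside every disc result above. All 10 measured haemocyte markers were lower in both mutant disc arrays, 9 of them past the test, and their summed level was 9.81 and 10.04 in mutant disc cells, against 14.18 and 15.39 in control disc cells (log2 of the sum). Among them the blood cell GATA factor gene srp fell by 6.60 ± 0.26, the peroxidasin gene Pxn by 5.51 ± 0.32, the phagocytosis receptor gene NimC1 by 4.48 ± 0.29 and the haemocyte surface gene He by 7.04 ± 0.46 on the log2 scale (SE, n = 2 each). Adjusted p by limma was 1.2e-05 for srp, 6.7e-05 for Pxn, 0.00012 for NimC1 and 0.000125 for He. The Pxn value is that of its brightest probe set, and the mean of all its probe sets differed by -2.78 (adjusted p = 0.000172, limma). Of 6 disc myoblast and muscle markers 3 fell, and the list had summed levels of 8.28 and 7.74 in mutant disc cells, against 10.85 and 10.74 in control disc cells. Most of the linear sum in control disc cells came from zfh1 alone (10.21 and 10.37). Those that fell are muscle precursor genes, namely zfh1 (-3.38 ± 0.31), Him (-2.80 ± 0.27) and twi (-2.23 ± 0.29), the last not past the test without the second mutant disc array (adjusted p = 0.0571, limma) or in the disc arrays alone (0.0541). The genes of differentiated muscle, Act88F (-0.27), Mlc2 (-0.21) and Tm2 (0.12), did not pass. Their means in control disc cells (4.62, 4.26 and 3.99) lay near the lower quartiles of those arrays (4.22 and 4.20), which left little room for a fall. Of the eye disc genes eya, so and gl, each higher in both mutant disc arrays, only so passed the test. The mean of the eye determination gene so was 11.60 in mutant and 10.77 in control disc cells (0.83 ± 0.10, adjusted p = 0.00491, limma). That of the photoreceptor factor gene gl was 12.17 in mutant and 11.72 in control disc cells (0.45 ± 0.24, adjusted p = 0.488, limma). For eya the difference was 0.45 ± 0.11 (adjusted p = 0.0967, limma). In sorted or bulk samples fewer cells of a type and less RNA per cell cannot be told apart, and the part of these shifts in the readings of the 7 genes was not tested.

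**Figure D2:**
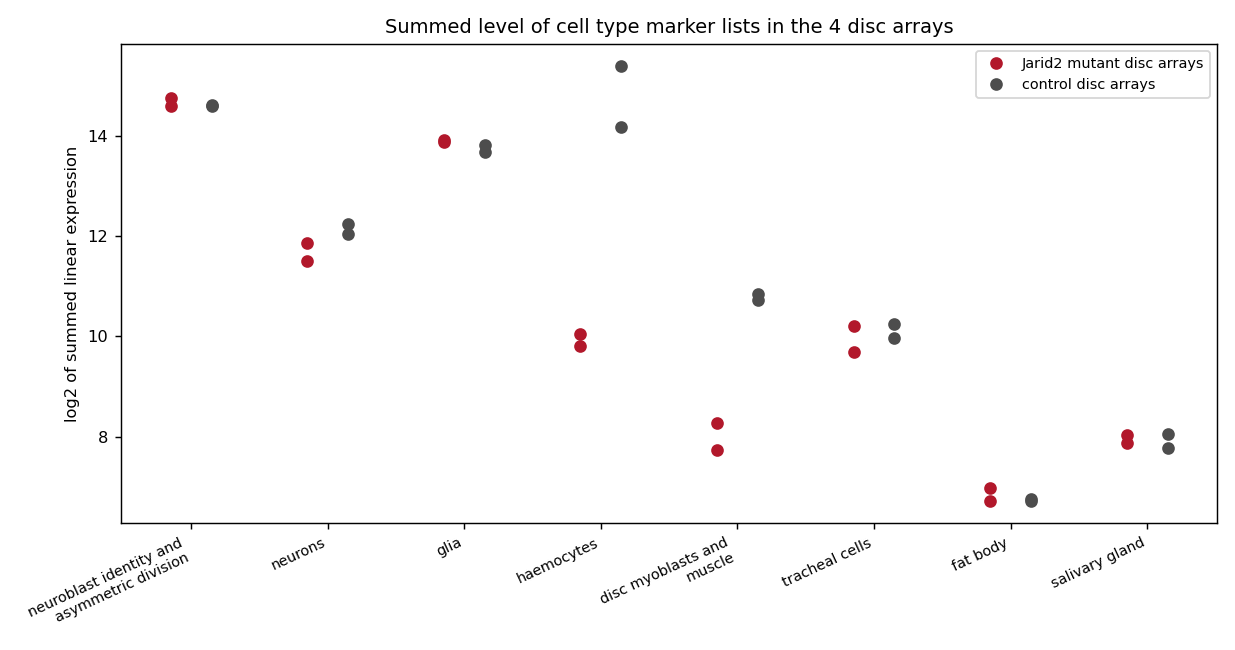
Log2 of the summed linear expression (vertical axis) of 8 marker lists (horizontal axis) in the 4 disc arrays, with Jarid2 mutant arrays in red to the left of control arrays in grey. The summed levels of the haemocyte, muscle and neuron lists were lower in both mutant arrays and that of the glia list was higher, while the neuroblast list lay between 14.58 and 14.74 in all 4. A sum is weighted to its brightest genes. In the neuroblast list these were numb, par-6, scrib and l(2)gl, with means of 12.02, 11.72, 11.64 and 11.59 in control disc cells, so this sum does not show the level of the dimmer genes.

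Of 14 measured neuron markers 0 passed the limma test in either direction and 3 had an unadjusted p under 0.05. In 4 of them (28.6%) both mutant disc arrays lay below both controls and in 0 above, beside 15.4% lower and 37.1% higher among all probe sets. The neuron list summed to 11.87 and 11.50 in mutant disc cells, against 12.05 and 12.24 in control disc cells. The defining neuroblast gene dpn, a bHLH repressor, read 11.21 and 11.53 in mutant disc cells, against 11.02 and 11.10 in control disc cells, and did not pass (0.31 ± 0.15, adjusted p = 0.422, limma). The gene mira, whose product carries cell fate determinants in dividing neuroblasts, read 8.33 and 8.005 in mutant disc cells, against 8.70 and 8.03 in control disc cells, and did not pass either (-0.20 ± 0.23, adjusted p = 0.859). These genes, like eya, so, gl and Lsp2 above, are named for their role and fall outside the rule for named genes. The genes dpn and mira do not stand for the whole neuroblast list of 19 genes. In 7 of the 19 (36.8%) both mutant disc arrays lay above both controls and in 5 (26.3%) below, beside 37.1% and 15.4% of all probe sets. In glia the markers divided, with the glial homeobox gene repo (-1.68 ± 0.23, adjusted p = 0.00853) and wrapper (-1.41 ± 0.16, adjusted p = 0.0029), a surface protein gene of wrapping glia, lower, and the glial fate switch gene gcm higher (1.15 ± 0.18, adjusted p = 0.016), out of 9 measured. The wrapper call held with any array left out, whereas repo did not pass without the first control (adjusted p = 0.0598) or the second mutant disc array (0.0867), and gcm did not pass without any 1 disc array (0.06 to 0.135) or after quantile normalization of all arrays (0.115).

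The 7 lists called neural lists here hold neural progenitor genes, and also family relatives of the members, corepressors and optic lobe factors. Their counts therefore do not stand for neural progenitor genes alone. Of 78 further genes measured in these lists, 3 rose and 1 fell in disc cells, or 5.13%, beside 2.61% of all probe sets called either way (0.517% higher and 2.09% lower). After quantile normalization of all arrays the split was 1 higher and 1 lower. Both mutant disc arrays lay above both controls in 25 of the 78 (32.1%) and below in 24 (30.8%), beside 37.1% and 15.4% of all probe sets, and 20 had an unadjusted p under 0.05, beside 13.8% of all probe sets. The median difference was -0.01, against 0.06 over all probe sets.

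The proneural relatives of tap held 2 of the 3 genes that rose. Of 14 measured bHLH and associated genes, Oli and ato rose and 0 fell. The gene Oli, an Olig-type factor, read 7.68 and 7.06 in mutant disc cells, against 6.19 and 6.30 in control disc cells (1.13 ± 0.19, adjusted p = 0.0219, limma). The gene ato, which selects the founder photoreceptor of each ommatidium, read 11.73 and 12.08 in mutant disc cells, against 11.02 and 11.08 in control disc cells (0.86 ± 0.15, adjusted p = 0.0238, limma). Both calls were lost in a fit of the disc arrays alone, with adjusted p = 0.0869 for Oli and 0.0626 for ato, and ato also failed to pass under quantile scaling, whether over the 10 arrays (0.117) or by tissue (0.0577). Without the first or the second control disc array adjusted p was 0.129 or 0.123 for Oli and 0.134 or 0.145 for ato, and it was 0.0551 for Oli without the first mutant disc array and 0.162 for ato without the second. Leaving out either Jarid2 mutant larval array, which bears on this comparison through the pooled spread, gave 0.0542 for Oli. The achaete-scute genes did not move alike, and none of them passed the test. The differences were -0.20 ± 0.25 for ac and -0.02 ± 0.24 for sc. Without overlap of the disc groups, ase was higher (0.50 ± 0.20, adjusted p = 0.324, limma) and l(1)sc lower (-0.42 ± 0.15, adjusted p = 0.270, limma). The l(1)sc readings in mutant disc cells (4.12 and 4.03) lay below the lower quartiles of their arrays (4.21 and 4.27).

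Among 19 neuroblast identity and division genes nab rose and 0 fell. The gene nab encodes a transcriptional cofactor, and it read 9.07 and 9.16 in mutant disc cells, against 8.09 and 8.23 in control disc cells (0.95 ± 0.12, adjusted p = 0.0042, limma). This call held in the disc arrays alone (adjusted p = 0.0179) but not without the second mutant disc array (0.0511) or after quantile normalization of all arrays (0.0521). Of 18 temporal and intermediate progenitor factors 0 rose and 1 fell, the list median was -0.23, and both mutant arrays lay below both controls in 7 (38.9%) and above in 4 (22.2%). The gene that fell was Syp, an RNA-binding protein gene of late neuroblasts, which read 11.52 and 11.39 in mutant disc cells, against 12.11 and 12.38 in control disc cells (-0.80 ± 0.12, adjusted p = 0.0115, limma). Its other probe set differed by -0.47 ± 0.41 (adjusted p = 0.75, limma), and the mean of both by -0.63 (adjusted p = 0.236), which did not pass. Nor did Syp pass without the second control disc array (0.1003), the first mutant disc array (0.0534) or the second (0.111), or in the disc arrays alone (0.0582). In the remaining neural lists limma called 0 of 15 forkhead genes and 0 of 5 nuclear receptor genes of or near the tll type in either direction. The same held for 0 of 4 sna relatives and corepressors and 0 of 6 optic lobe factors. Of all probe sets 2.61% were called, and at that share lists this small would often hold no call.

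**Figure D3:**
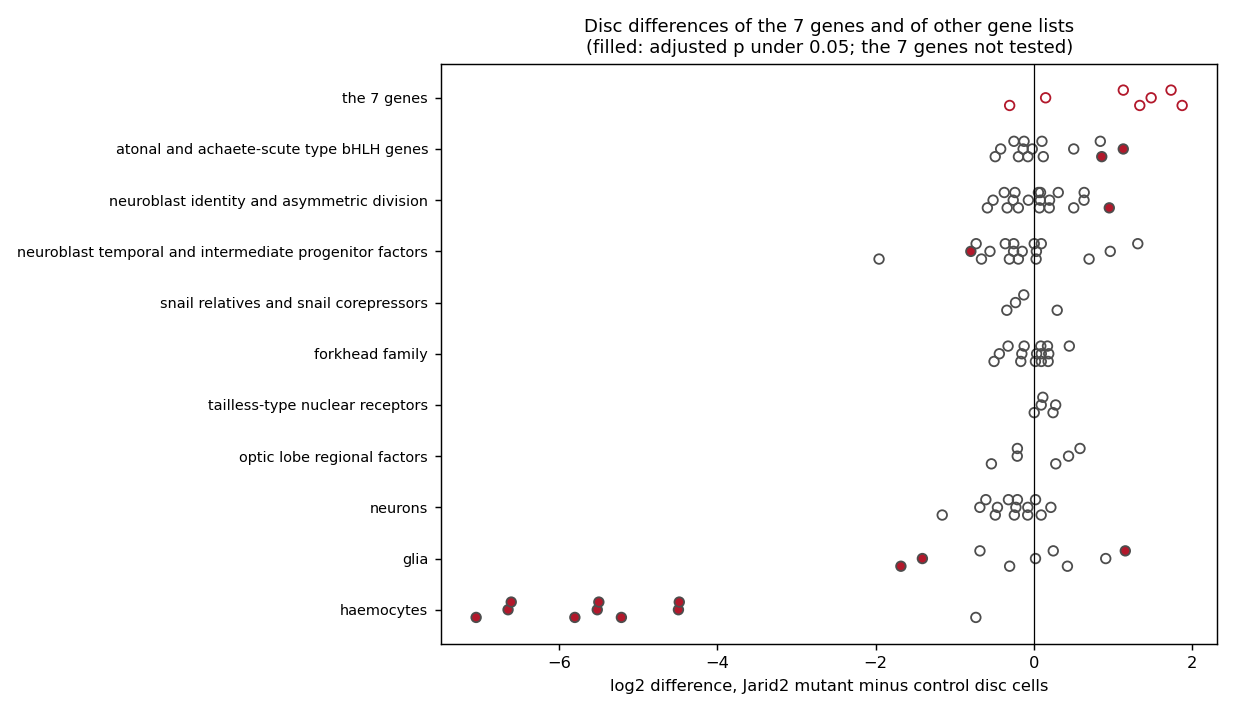
Log2 difference of Jarid2 mutant minus control disc cells (horizontal axis) for each gene of the 7 and of 10 other lists (rows), with genes past an adjusted p of 0.05 filled and the 7 genes not tested. The 7 genes have a median of 1.34, the medians of the 7 neural lists lie between -0.23 and 0.11, and that of the haemocyte list is -5.50.

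Across the 10 arrays tap and erm had the most similar profiles of the 7 genes (Pearson r = 0.962), followed by erm and fd59A (0.897) and tap and fd59A (0.837), while tll and sna reached 0.754 and esg ran opposite to fd59A (-0.797). These are descriptions over arrays that share their group structure and the tissue difference, and no p is given. For each of the 5 genes with separated disc groups, the 3 genes with the most similar profile were listed. The homeobox gene hbn, known from the embryonic brain, was the closest to both erm (r = 0.971) and tap (0.937). It read 7.27 and 6.59 in mutant disc cells, against 6.04 and 5.88 in control disc cells, with the first mutant array the higher. The NK2-type homeobox gene scro was also among the 3 closest to tap (0.921), with 8.95 and 8.21 in mutant disc cells, against 7.73 and 7.503 in control disc cells. The gene Oli was the closest to fd59A (0.982), ahead of CG15478 and CG11294. The closest to sna was Lrrk (0.942), and the closest to tll was CG13392 (0.988), whose readings spanned far less than those of tll.

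In whole larvae, which include the brain, the Jarid2 mutation was compared with controls to see whether the same genes differ outside the sorted disc cells. None of the 7 passed the test in Jarid2 mutant larvae, where 2.4% of all probe sets were called, and 0 had an unadjusted p under 0.05, against 11.6% of all probe sets. In tap and wor the 2 groups did not overlap, a pattern found in 35.9% of all probe sets in either direction. The lowest adjusted p was 0.552, for wor (limma). The median log2 difference was 0.00, and the range ran from -0.23 for erm to 0.36 for wor.

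The gene wor read 7.85 and 7.73 in Jarid2 mutant larvae, against 7.58 and 7.29 in control larvae. Both mutant arrays lay above both controls, with a difference of 0.36 and a 95% interval from -0.07 to 0.79. The gene tap read 7.85 and 7.87 in mutant larvae, against 7.84 and 7.61 in control larvae, barely above the controls (0.14, interval -0.36 to 0.64). The gene erm read 7.27 and 7.11 in mutant larvae, against 7.57 and 7.26 in control larvae (-0.23, interval -0.89 to 0.44), and these groups overlapped.

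The other members overlapped between Jarid2 mutant and control larvae. The difference for fd59A was -0.12 (interval -0.98 to 0.74), and for tll it was 0.21 (-0.15 to 0.57). For sna the difference was 0.00 (-0.46 to 0.47) and for esg -0.01 (-0.47 to 0.45). Because the disc comparison had chosen the genes, the difference between the disc and larval effects was not tested for them.

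**Figure D4:**
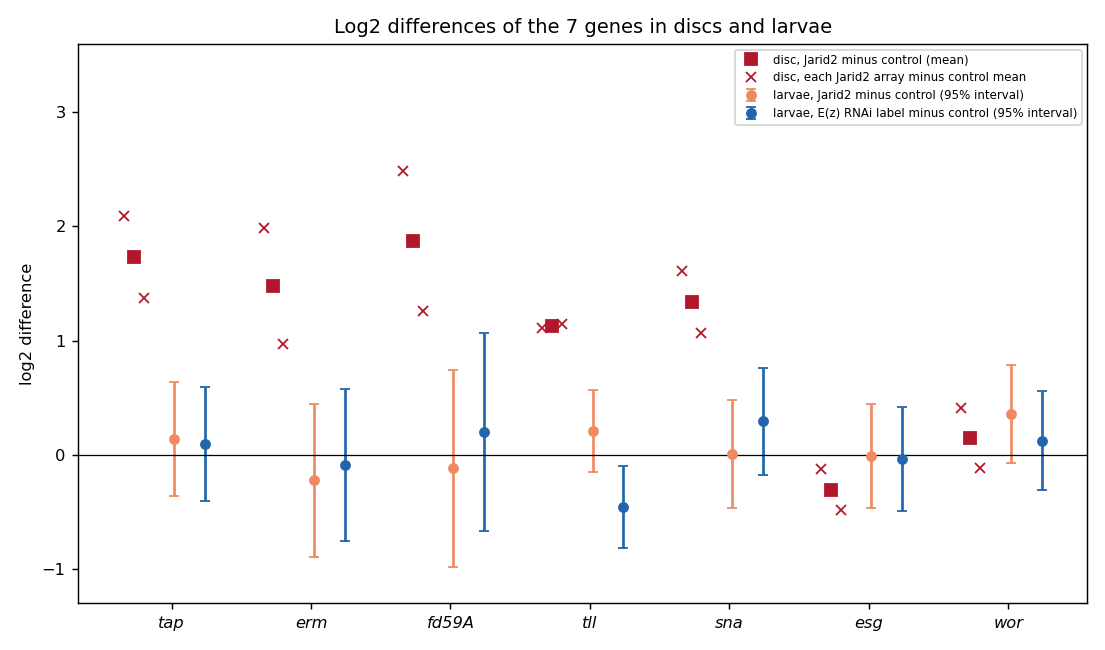
Log2 differences (vertical axis) of the 7 genes (horizontal axis). Squares are Jarid2 mutant minus control disc cells and crosses each mutant disc array minus the control mean, both without a test, and circles are the larval comparisons with their 95% intervals. The disc values of tap, erm, fd59A, tll and sna lie between 1.13 and 1.87, while the differences of both larval groups from control larvae lie between -0.46 and 0.36 for all 7 genes.

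In the larvae labelled E(z) RNAi none of the 7 genes passed the limma test against the same control larvae either, beside 4.1% of all probe sets called, and 1 had an unadjusted p under 0.05, against 21.2% of all probe sets. That gene was tll, which read 6.75 and 6.93 in the labelled arrays, against 7.43 and 7.17 in control larvae. Both labelled arrays lay below both controls, with a difference of -0.46 ± 0.16 (adjusted p = 0.143, limma). The gene sna read 6.82 and 6.80 in the labelled arrays, against 6.74 and 6.30 in control larvae, slightly above both controls (0.29 ± 0.20, adjusted p = 0.434, limma). The other 5 genes overlapped, with differences between -0.09 for erm and 0.20 for fd59A, while 46.6% of all probe sets had groups without overlap.

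Set directly against each other, Jarid2 mutant larvae and larvae labelled E(z) RNAi differed past the test in tll and in none of the other 6 genes. It read 7.68 and 7.34 in Jarid2 mutant larvae, against 6.75 and 6.93 in larvae labelled E(z) RNAi. The mutant arrays were both the higher, by 0.67 ± 0.16 or 1.59-fold (adjusted p = 0.0475, limma), beside 6.11% of all probe sets called either way. The call was kept in 3 of 23 alternatives. It was lost with the larval arrays fitted by themselves (adjusted p = 0.149) and without any 1 array of the Jarid2 mutant larvae, the larvae labelled E(z) RNAi or the disc groups, which gave adjusted p between 0.0635 and 0.225. The other 6 genes had differences between -0.32 for fd59A and 0.23 for wor.

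The 78 genes of the neural lists were also compared in larvae. In Jarid2 mutant larvae 0 rose and 1 fell, or 1.28%, beside 2.4% of all probe sets called. The gene that fell was the neural fate gene pros, which read 8.13 and 7.88 in mutant larvae, against 9.07 and 9.01 in control larvae (-1.04 ± 0.16, adjusted p = 0.0147, limma). Beside 4.1% of all probe sets, 3.85% of the 78 were called in the larvae labelled E(z) RNAi, where 3 rose and 0 fell. These were the bHLH gene dimm (0.74 ± 0.15, adjusted p = 0.0364), nab (0.58 ± 0.12, adjusted p = 0.0373) and the POU factor gene pdm2 (0.88 ± 0.12, adjusted p = 0.00914). The dimm readings, 4.66 and 4.55 against 3.81 and 3.92 in control larvae, lay below the lower quartiles of their arrays (5.09 to 5.30). Leaving out the dimmest 30% of probe sets removed dimm and pdm2. The mean of the nab probe sets differed by 0.40 (adjusted p = 0.156, limma), which did not pass. None of the 4 calls held when the larval arrays were fitted by themselves, with adjusted p = 0.0866 for pros, 0.0948 for dimm, 0.147 for nab and 0.0798 for pdm2. The pros call was also lost without any 1 of the Jarid2 mutant or control larval arrays (adjusted p 0.0562 to 0.107), the dimm call without any 1 larval or control disc array (0.0581 to 0.12), the nab call without any 1 array other than the Jarid2 mutant larvae (0.0588 to 0.17) and the pdm2 call without replicate 2 of the larvae labelled E(z) RNAi (0.0552). These larval genes lie outside the rule for named genes and were named after their values were seen.

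The order of the 5 groups, in deposited log2 values, differed between the genes. The place of a disc group against a larval group depends on how the arrays were scaled. For tap, erm and fd59A control disc cells were the lowest group, with means of 6.49, 6.03 and 4.68, and the next group stood above them without overlap. Mutant disc cells were the highest group for tap (8.22) and erm (7.51), but overlapped with the larval group next below, and for fd59A their mean lay between those of control disc cells and the larvae, with an overlap with Jarid2 mutant larvae. For tll (8.61) and sna (7.82) mutant disc cells stood above the other 4 groups without overlap. The lowest group was larvae labelled E(z) RNAi for tll (6.84) and control disc cells for sna (6.48), which overlapped with control larvae. For esg both disc groups, at 10.75 in mutant and 11.06 in control disc cells, stood above all larval groups, whose means lay between 9.64 and 9.67. For wor all neighbouring groups overlapped, with means between 7.43 and 7.79. By rank within each array this changed. The share of probe sets below tap was 57.1% and 55.8% in control disc arrays, against 50.9% to 55.5% in larval arrays. For erm the shares were 54.3% and 53.1%, against 46.5% to 51.2%, and for sna 56.5% in both, against 38.9% to 43.6%. For fd59A they were 30.7% and 40.0%, against 44.9% to 51.2%. Of these genes only fd59A stayed lowest in control disc cells. In mutant disc arrays the shares were 67.7% and 63.8% for tap, 64.2% and 60.0% for erm, 64.6% and 62.4% for sna, and 60.5% and 53.6% for fd59A. All of these lay above the larval shares, so the overlaps of mutant disc cells with larvae in tap, erm and fd59A were not seen by rank. For wor the disc arrays (60.4% to 63.5%) ranked above larval arrays (47.6% to 53.6%).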

How the data were processed

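RNA of 10 samples was hybridised to 1-colour Affymetrix arrays. The authors deposited log2 expression values per probe set, as the range of the values shows, and limma 3.4.3 is named in the submitters' processing notes. The sources used here give no background correction, normalization or probe set summary. All 10 columns matched samples by name. The 183 control probe sets were left out. Of the other 18769 probe sets 13647 had 1 gene in the platform annotation (13544 matched the RefSeq gene table), 402 had several and 4720 had none. The brightest probe set stood for a gene.

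In R 4.3.3, limma 3.58.1 (lmFit, eBayes) fitted the means of all 5 groups with no covariate (5 residual and 2.78 prior degrees of freedom). P-values are two-sided, adjusted by Benjamini-Hochberg over 18769 probe sets and called under 0.05. The fit was tested on simulated data. The members, the 14 gene lists and the tests were chosen with earlier results of these data known. Named genes were the 7 members, up to 4 called genes per list in discs, and 3 genes of similar profile for each member with separated disc groups. Same-numbered replicates did not pair, with correlations of their deviations between -0.422 and 0.112. Alternatives were other scalings, a filter on dim probe sets, smaller fits, other priors, array weights, a replicate block, a fold minimum, probe set means and leaving out each array. Figures were drawn with matplotlib 3.10.9.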

Additional observations from a re-analysis of the deposited data

Results flagged for a closer look

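The 14 genes named from the lists of related genes and cell type markers were chosen because they passed the test in disc cells. A test of their disc effect minus their larval effect is therefore not independent of that choice. The 9 of the 14 that were flagged are those in which this difference had an adjusted p under 0.05 (limma). The split into 9 and 5 genes is an outcome of that test, so no conclusion is drawn from it. The differences are given as a description. The blood cell genes srp, Pxn, NimC1 and He, each by its brightest probe set, had differences of -6.21, -5.24, -2.96 and -7.09 on the log2 scale. The muscle precursor genes zfh1, Him and twi had differences of -3.58, -3.02 and -2.37. The glial gene wrapper had -1.47, and the RNA-binding protein gene Syp had -0.88. In the other 5 genes the differences were 0.89 for Oli, 0.61 for ato, 0.68 for nab, 0.98 for gcm and -0.45 for repo, which also fell in Jarid2 mutant larvae (-1.23 ± 0.23, adjusted p = 0.0392, limma). None of the 7 neural progenitor genes moved in opposite directions without overlap in disc cells and larvae.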

How the results depend on the processing

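The number of the 7 genes with both mutant disc arrays above both controls was 5 under every scaling and filter tried. A change of fit leaves the array values as they are and could not move this count. It was 5 to 6 with each array left out in turn, since wor parts without the second mutant disc array. The count uses the values by which the genes came to be listed and is a description. The disc difference of fd59A, computed by leaving out each disc array, lay between 1.26 and 2.49, that of erm between 0.97 and 1.99, and that of wor turned sign (-0.11 to 0.41). Quantile normalization of all arrays lowered the disc differences of tap, tll and sna to 1.16, 0.78 and 0.91, and left 3 of the 7 genes at 2-fold or more, against 5 as deposited; the cause was not tested. The count of members called stayed at 0 in all alternatives for Jarid2 mutant larvae and for larvae labelled E(z) RNAi against controls. For tll in Jarid2 mutant larvae against larvae labelled E(z) RNAi, the count of 1 fell to 0 after each other scaling, without dim probe sets, in the larval arrays or the compared groups alone, with an intensity trend, array weights, a replicate block, a 2-fold minimum or probe set means, and ranged from 0 to 1 with an array left out; it stayed at 1 with the robust prior, and the log2 difference lay between 0.50 and 0.84. The count of 4 called neural list genes in discs became 2 after quantile normalization of all arrays, 1 with a 2-fold minimum, 1 in the disc arrays or the compared groups alone and 9 with array weights, and ranged from 1 to 4 with an array left out, being 1 without the second control disc array and 2 without the second mutant disc array. With the replicate number as a block it remained 4. With the larval control numbers crossed, a block added after the data were seen because larval control deviations ran against those of larval mutants (r = -0.422), it was 5, and the count of members called against larvae labelled E(z) RNAi was 0.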
